A study of Mus musculus with 3 samples.

Results

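The genes described here encode TDP-43, the FET proteins EWSR1 and TAF15, matrin-3 and 5 proteins of stress granules. They were chosen by gene symbol in the deposited count table, as Tardbp, Ewsr1, Taf15, Matr3, Atxn2, G3bp1, G3bp2, Tia1 and Caprin1. All 9 symbols were found once among 22976 listed genes, and all 9 passed the filter on low counts, which left 13705 genes for testing. The libraries came from NSC-34, a motor neuron-like mouse line obtained by hybridising neuroblastoma and embryonic spinal cord cells. Clone 1 and clone 2 are libraries from clones that became resistant to PR20 spontaneously, with 1 library each and a labelled exposure of 3 weeks at 10 µM. They were set against 1 library of untreated wild-type NSC-34 cells, the control. PR20 consists of proline-arginine repeats, 1 of the products made from the C9ORF72 repeat expansion in amyotrophic lateral sclerosis (ALS). Each resistant library is 1 clone, and the control has no replicate.

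TDP-43, the FET proteins and matrin-3 are mainly nuclear proteins that bind RNA and act in transcription and splicing, and TDP-43 also limits its own messenger RNA. Under stress, when translation initiation is blocked, messenger RNAs and their binding proteins gather in cytoplasmic stress granules. G3BP1 and G3BP2 nucleate these granules, CAPRIN1 binds G3BP proteins and favours assembly, and TIA1 and ataxin-2 are recruited and contribute to it. Many of these proteins carry low-complexity segments that condense with RNA, and arginine-rich dipeptide repeat proteins are known to bind proteins of this kind. Mutations in several of the human genes have been linked to ALS.

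Depth was similar in the 3 libraries, with 11389663 gene counts in clone 1 and 11307034 in clone 2, against 11700755 in the control. Levels are given in CPM, that is counts scaled to the library total, with TMM factors that correct for differences in RNA composition. A count of 3 corresponded to 0.267 and 0.270 CPM in the clones and to 0.25 CPM in the control, and the counts of the 9 genes lay between 392 and 5028. Intervals on levels are 95% exact Poisson intervals and cover counting error only. No label states whether separate cultures were used, so the p-values cover no more than library-to-library spread, which may be technical. In bulk RNA, a change in the make-up of the cell population and a change of RNA per cell cannot be told apart.

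Markers of cell identity differed between the libraries. Of 13 neuronal and motor neuron markers, 9 were tested and all 9 fell, and their summed level was 296 and 286 CPM in the clones, against 1569 CPM in the control. Chat and Lhx3 had no count in either clone. Both had counts in the control, but neither passed the filter on low counts. Tubb3 kept 256 and 248 CPM in the clones, against 778 CPM in the control. All 6 tested neuroblastoma markers fell as well, with summed levels of 596 and 520 CPM in the clones and 1013 CPM in the control. Of the other markers, 1 of 4 tested fibroblast genes, 0 of 3 glial genes and 1 of 2 immune and endothelial genes fell and none rose. Fibroblast markers summed to 67.2 and 84.1 CPM in the clones and 73.6 CPM in the control, glial markers to 6.23 and 6.02 CPM against 7.98 CPM, and immune and endothelial markers to 6.32 and 7.09 CPM against 10.5 CPM. The part of this change in the values of the 9 genes was not tested.

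Of the 9 genes, 6 rose in the clones, 0 fell and 3 did not pass edgeR's quasi-likelihood test at an adjusted p of 0.05. The 6 were Ewsr1, Taf15, Atxn2, Matr3, Tardbp and Caprin1, with log2 fold changes between 0.15 and 0.43, that is 1.11-fold to 1.35-fold. G3bp1, G3bp2 and Tia1 did not pass. Among all 13705 tested genes, 24.3% were called higher and 25.8% lower, 50.1% in all, and among the 7898 tested genes that averaged 20 CPM or more, 35.7% were called higher and 24.5% lower. The unadjusted p was under 0.05 for the same number of higher genes and for 1 lower gene, Tia1, and DESeq2 and limma-voom also called 0 of the 9 lower. DESeq2 called 2 of the 9 higher, against 11.5% of all genes higher and 10.6% lower, and limma-voom called 6, against 22.4% and 24.0%. The legacy edgeR fit also called 6 higher, against 23.8% higher and 25.0% lower. Both clones lay above the control for 8 of the 9 genes and below it for Tia1, against 44.0% and 44.5% of all tested genes. Among the 7898 genes averaging 20 CPM or more, both clones lay above the control for 4149 and below it for 3079.

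**Figure D1:**
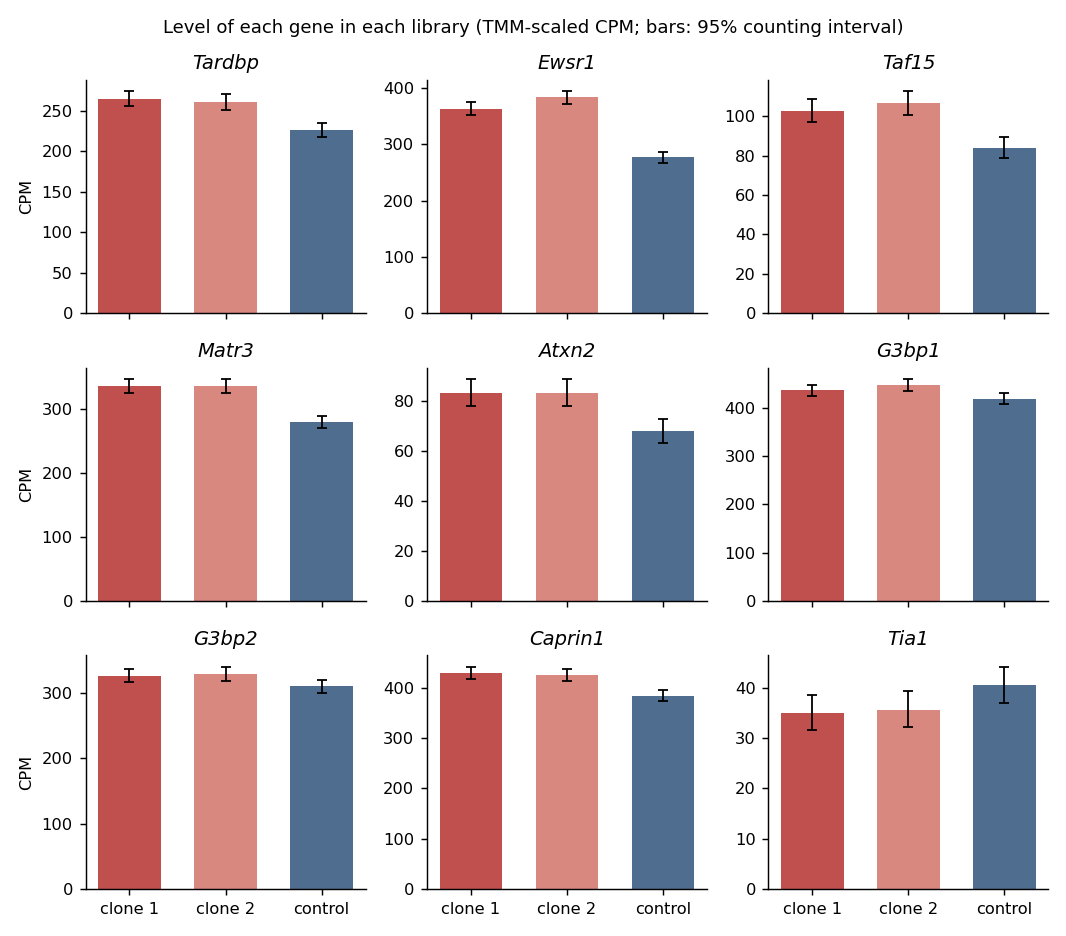
Level of each of the 9 genes in CPM (vertical axes start at 0) in clone 1, clone 2 and the control, with 95% counting intervals. Both clones stand above the control for every gene except Tia1, and the gap is widest for Ewsr1, at 364 and 384 CPM in the clones and 277 CPM in the control.

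Tardbp (ENSMUSG00000041459.15; GRCm38 chromosome 4, 148612382 to 148627019, minus strand), which encodes TDP-43, stood at 265 CPM in clone 1 and 261 CPM in clone 2, against 227 CPM in the control. Their intervals were 256 to 275 CPM and 251 to 270.3 CPM in the clones and 218 to 235 CPM in the control, so the clones did not overlap the control. Tardbp rose by 0.21 ± 0.05 on the log2 scale (SE), with an edgeR adjusted p of 0.00347. The adjusted p was 0.101 with DESeq2 and 0.0560 with upper-quartile factors, and neither called it. The annotation places Masp2 on the opposite strand over 23.3% of the exonic bases of Tardbp. Masp2 had 30 and 23 counts in the clones and 42 in the control, and the sources used here do not state whether counting used strand.

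Matr3 (ENSMUSG00000037236.14; chromosome 18, 35562138 to 35593835, plus strand) encodes matrin-3, a nuclear matrix protein that binds DNA and RNA. Its level was 335 CPM in clone 1 and 336 CPM in clone 2, against 279 CPM in the control. The clones were nearly equal and both lay above the control, by 0.27 ± 0.05 on the log2 scale (SE), and the edgeR adjusted p was 0.000494. Genes of chromosome 18 were higher in the clones as a whole, with a median log2 fold change of 0.41 over 339 tested genes, and within 1 Mb of Matr3 16 of 28 tested neighbours rose and 4 fell, with a median of 0.40. Relative to the median of its chromosome, Matr3 had a log2 difference of -0.15, the opposite sign. The part of the chromosome in the rise of Matr3 was not tested. Gm28285, annotated on the same strand over 17.3% of its exonic bases, had 0 and 2 counts in the clones and 3 in the control.

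The chromosomes of the other 8 genes had medians between -0.08 and 0.05, and all 8 kept the sign of their fold change when that median was subtracted. Closer to the genes, within 1 Mb, the 27 tested neighbours of Tia1 had a median log2 fold change of -0.21, with 5 higher and 9 lower, near the -0.20 of Tia1 itself. The 38 neighbours of Tardbp had a median of -0.17, with 3 higher and 16 lower, the opposite sign to Tardbp. For the other 6 genes these medians lay between 0.00 and 0.04. The part of the region in the value of Tia1 was not tested. The plot of fold changes by gene sets each value beside its chromosome.

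**Figure D2:**
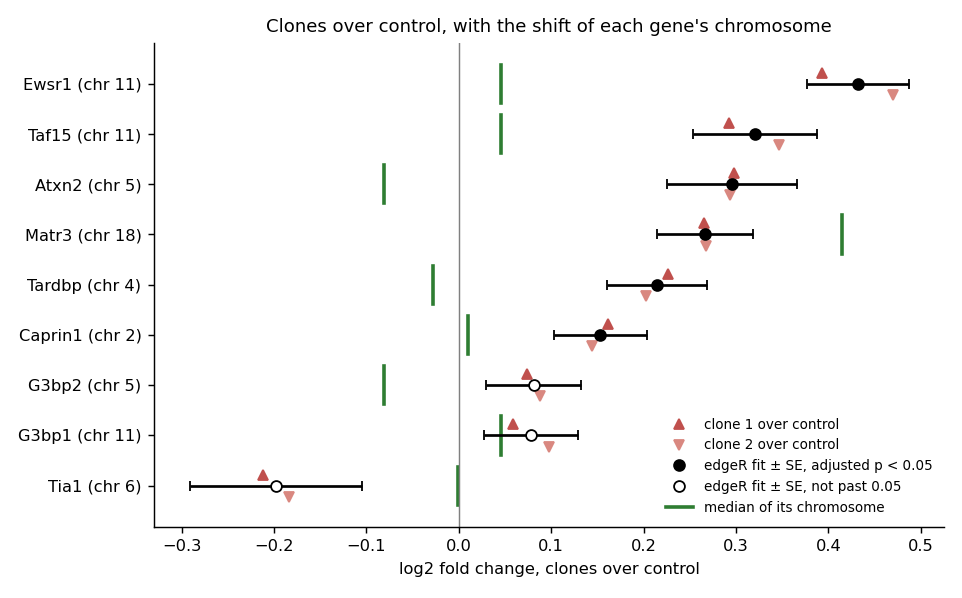
Log2 fold change of the clones over the control for each gene (horizontal axis), from edgeR with its SE (circles, filled where the adjusted p was under 0.05) and for each clone alone (triangles). Vertical green bars give the median of all tested genes on the gene's chromosome. Matr3 lies at 0.27, left of its chromosome's median of 0.41, while the other called genes lie right of theirs.

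The FET gene Ewsr1 had the largest log2 fold change of the 9 genes. Ewsr1 (ENSMUSG00000009079.16; chromosome 11, 5069689 to 5099266, minus strand), whose protein binds RNA and acts in transcription and splicing, stood at 364 CPM in clone 1 and 384 CPM in clone 2, against 277 CPM in the control. Its log2 fold change was 0.43 ± 0.05 (SE; edgeR adjusted p = 7.70e-06). The counting interval of the control ended at 287 CPM, below the start of those of clone 1 at 353 CPM and clone 2 at 372 CPM. Rhbdd3 overlaps 4.37% of its exonic bases on the opposite strand and had 190 and 153 counts in the clones and 207 in the control.

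Taf15 (ENSMUSG00000020680.15; chromosome 11, 83473086 to 83506743, plus strand), which encodes a FET protein associated with the general transcription factor TFIID, was measured at 103 and 107 CPM in the clones and 83.9 CPM in the control. Both clones were above the control, and the log2 fold change was 0.32 ± 0.07 (SE; edgeR adjusted p = 0.000878). With DESeq2 its adjusted p was 0.0818 and the call was lost.

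Among granule proteins, the G3BP genes showed the smallest differences. G3bp1 (ENSMUSG00000018583.5; chromosome 11, 55469685 to 55504838, plus strand) had 436 and 448 CPM in the clones and 418 CPM in the control. G3bp2 (ENSMUSG00000029405.16; chromosome 5, 92052146 to 92083719, minus strand) had 327 and 330.0 CPM in the clones and 310.5 CPM in the control. Gm26582, annotated on the opposite strand over 23.7% of the exonic bases of G3bp2, had 0 and 2 counts in the clones and 4 in the control. The intervals of both clones overlapped that of the control for G3bp2. For G3bp1 clone 1, from 424 CPM, overlapped the control, which ended at 430.1 CPM, and clone 2, from 435 CPM, did not. Their log2 fold changes were nearly equal, 0.08 ± 0.05 for both (SE; edgeR adjusted p = 0.215 and 0.207), and under upper-quartile factors both came to 0.00. The ratio of clone 1 to the control had a counting interval of 0.00 to 0.12 for G3bp1 and 0.01 to 0.14 for G3bp2 on the log2 scale. For clone 2 these intervals ran from 0.04 to 0.15 and from 0.02 to 0.15.

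Caprin1 (ENSMUSG00000027184.14; chromosome 2, 103762941 to 103797649, minus strand), the G3BP partner, stood at 430.4 CPM in clone 1 and 425 CPM in clone 2, against 385 CPM in the control. Both clones were above the control. Its log2 difference was 0.15 ± 0.05 (SE), past edgeR's test with an adjusted p of 0.0190, with an adjusted p of 0.201 with DESeq2 and 0.218 with upper-quartile factors, neither of which called it.

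Atxn2 (ENSMUSG00000042605.16; chromosome 5, 121711337 to 121816493, plus strand) encodes ataxin-2, which binds the poly(A)-binding protein and whose human form carries a polyglutamine tract. Its values were 83.4 CPM in clone 1 and 83.1 CPM in clone 2, against 67.8 CPM in the control. The clones differed by less than 1 CPM and both exceeded the control, by 0.30 ± 0.07 on the log2 scale (SE), with an edgeR adjusted p of 0.00244. DESeq2 did not call it, with an adjusted p of 0.162. Sh2b3, annotated over 0.631% of its exonic bases on the opposite strand, was read far more deeply, with 6052 and 6561 counts in the clones and 4598 in the control.

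Tia1 (ENSMUSG00000071337.11; chromosome 6, 86404219 to 86433405, plus strand), whose protein represses translation of bound messenger RNAs, was the shallowest of the 9, with 392 and 396 counts in the clones and 486 in the control. Its levels were 34.9 and 35.6 CPM in the clones and 40.4 CPM in the control, with intervals of 31.5 to 38.6, 32.2 to 39.3 and 36.9 to 44.2 CPM. These intervals overlapped, and the log2 difference of -0.20 ± 0.09 (SE), with an edgeR adjusted p of 0.0891, did not pass. On the log2 scale, the counting interval of the ratio to the control was -0.41 to -0.02 for clone 1 and -0.38 to 0.01 for clone 2. Upper-quartile factors gave -0.28 and an adjusted p of 0.0321, which passed. Over all settings tried, the adjusted p of Tia1 ran from 0.0321 to 0.599.

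The authors' deposited table, made with DESeq2 from the same 3 libraries, lists the same direction for each of the 9 genes. It gives an adjusted p under 0.05 for Ewsr1 (log2 fold change 0.42, adjusted p = 5.02e-05) and Matr3 (0.26, adjusted p = 0.0265), against 10.0% of its genes listed as higher and 9.77% as lower. For Tardbp, Taf15, Atxn2 and Caprin1 the authors' deposited table has adjusted p-values of 0.140, 0.120, 0.221 and 0.256.

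Under the 8 settings with a test, Ewsr1 and Matr3 were called in 7, Taf15 and Atxn2 in 6, Tardbp and Caprin1 in 5, Tia1 in 1 and the G3BP genes in 0. Without a low-count filter edgeR called 0 of the 9 genes and, of 22976 genes, 0.0% higher and 4 genes (0.0174%) lower, although 6 of the 9 were higher and 1 was lower at an unadjusted p under 0.05.

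**Figure D3:**
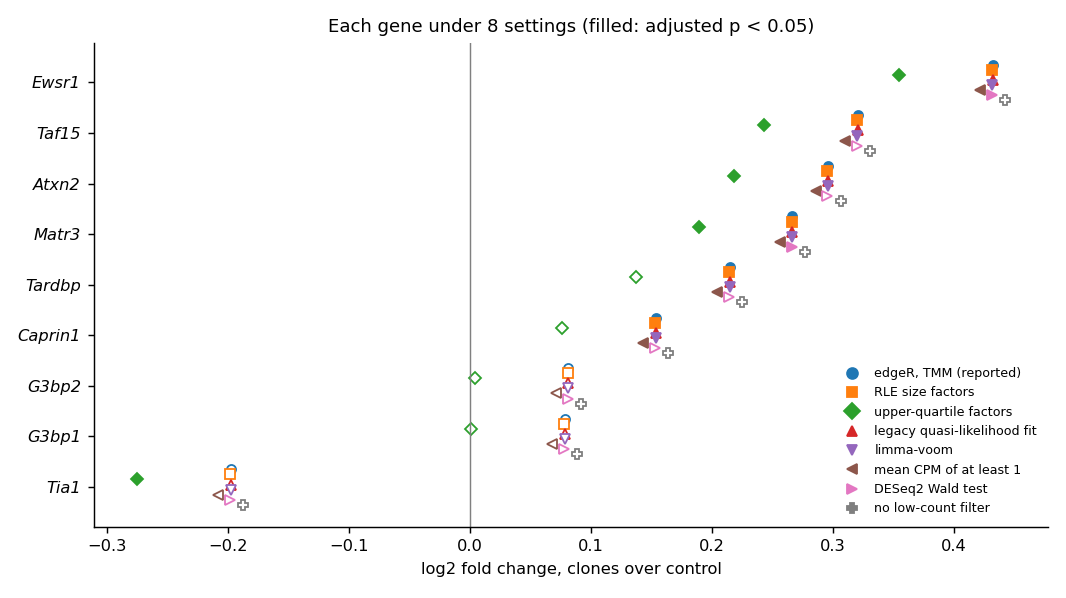
Log2 fold change of each gene (horizontal axis) under the reported edgeR fit and 7 other settings, with filled symbols where the adjusted p was under 0.05. Every gene keeps its sign under these 8 settings. Upper-quartile factors give the lowest value for each gene, and the fit without a low-count filter has no filled symbol.

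The clones were set against each other with 1 library each and therefore without a test. The log2 ratio of clone 2 to clone 1 lay between -0.02 for Tardbp and 0.08 for Ewsr1. Its counting interval included 0 for 8 of the 9 genes, and for Ewsr1 it ran from 0.02 to 0.14. The median size of this ratio was 0.02 over the 9 genes and 0.06 over the 7898 genes averaging 20 CPM or more. Ewsr1 thus had the largest difference between clones among the 9, and 40% of those genes had a larger one. Leaving out either clone kept the sign of the fold change for all 9 genes.

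To compare levels between genes, CPM were divided by length in kb, first over all annotated exonic bases of Gencode M21. In the clones Ewsr1 and G3bp1 shared the highest level, at 61.6 and 65.0 CPM per kb for Ewsr1 and 61.7 and 63.4 CPM per kb for G3bp1, and their intervals overlapped in each clone. In the control Ewsr1 was lower than G3bp1, at 46.9 against 59.2 CPM per kb. Caprin1 followed with 42.1 and 41.6 CPM per kb in the clones and 37.7 in the control, and G3bp2 with 37.8 and 38.1 CPM per kb in the clones and 35.9 in the control. Taf15, Tardbp and Matr3 lay close together, between 33.0 and 36.6 CPM per kb in the clones and between 27.4 and 29.1 in the control. Within the control the intervals of Taf15 overlapped those of both Tardbp and Matr3. Atxn2 had 5.31 and 5.30 CPM per kb in the clones and 4.32 in the control, and Tia1 had 2.22 and 2.26 CPM per kb in the clones and 2.57 in the control.

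These lengths weigh on the order. Per kb of the longest coding transcript, Ewsr1 came first in every library (140.5 and 148 CPM per kb in the clones, 107 in the control), and G3bp2 stood above G3bp1, at 77.2 and 78.0 CPM per kb in the clones and 73.4 in the control for G3bp2, against 65.0 and 66.8 in the clones and 62.4 in the control for G3bp1. Atxn2 and Tia1 remained the lowest of the 9 on both scales. Per kb of all exons, G3bp1 exceeded 94.2% of tested genes and Tia1 29.3%. With the longest coding transcript, over 12201 genes, these shares were 90.5% and 42.9%.

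**Figure D4:**
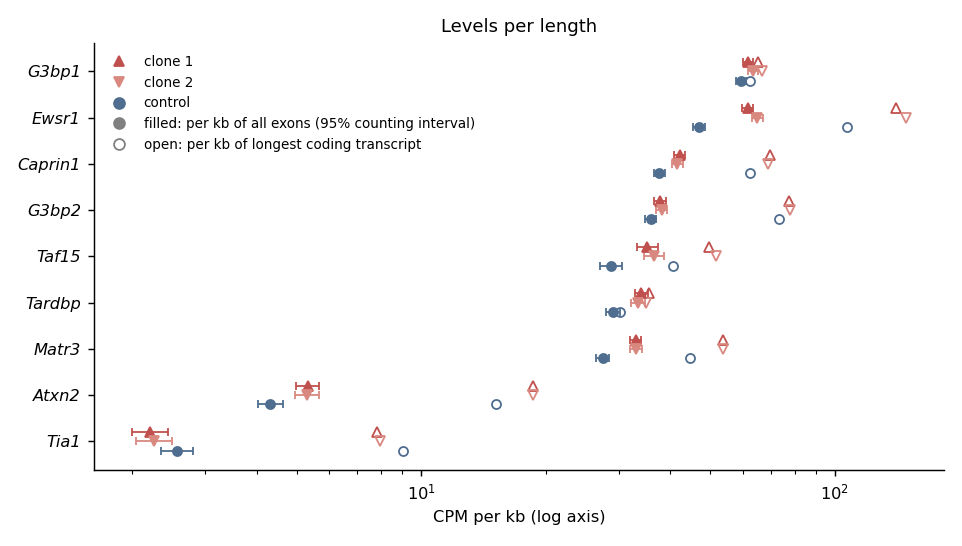
Level of each gene per kb in clone 1, clone 2 and the control (log axis), with filled symbols for all exons and their 95% counting intervals and open symbols for the longest coding transcript. Atxn2 and Tia1 are lowest on both scales, at 4.32 to 5.31 and 2.22 to 2.57 CPM per kb of all exons, while the order of the G3BP genes depends on the length used.

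Shares within pairs of related genes do not depend on library scaling, but they do depend on the length used. Per kb of all exons, G3bp1 made up 62.0% and 62.4% of the G3BP signal in the clones and 62.3% in the control, with Clopper-Pearson intervals of 61.0% to 63.1%, 61.4% to 63.4% and 61.3% to 63.3%. The 3 intervals overlapped. Per kb of the longest coding transcript its share was 45.7% and 46.1% in the clones and 46.0% in the control. Ewsr1 made up 63.6% and 64.0% of the signal of Ewsr1 and Taf15 in the clones and 62.0% in the control per kb of all exons, also with overlapping intervals, and 73.9% and 74.2% in the clones and 72.5% in the control per kb of the longest coding transcript. Tia1 made up 9.49% and 9.04% of the signal of Tia1 and its paralog Tial1 in the clones and 11.3% in the control per kb of all exons. For this pair the interval of clone 2, 8.16% to 9.98%, lay below that of the control, 10.4% to 12.4%, while that of clone 1 reached 10.5%. Per kb of the longest coding transcript the share of Tia1 was 19.2% and 18.4% in the clones and 22.5% in the control, and in plain reads 19.3% and 18.5% in the clones and 22.6% in the control. Tial1 itself had 146 and 157 CPM in the clones and 139 CPM in the control and was not called (edgeR adjusted p = 0.105).

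Promoter windows are shown for the member that rose most, the member with the smallest fold change and the member that was lower in both clones. RefSeq windows on GRCm38.p6, from 250 bases before to 50 after a start site, matched 8 of the 9 genes. Letters of 6 motifs were searched on both strands: the GC box GGGCGG, the CCAAT box CCAAT, the CRE core TGACG, the E-box CACGTG, the ETS core CCGGAAG and the NRF1 palindrome, whose letters are the capitals in the Tia1 window. Capitals mark every match, 5′ to 3′ on the gene's strand, for Ewsr1 (chr11:5099047-5099346), G3bp1 (chr11:55469502-55469801) and Tia1 (chr6:86403969-86404268).
Ewsr1: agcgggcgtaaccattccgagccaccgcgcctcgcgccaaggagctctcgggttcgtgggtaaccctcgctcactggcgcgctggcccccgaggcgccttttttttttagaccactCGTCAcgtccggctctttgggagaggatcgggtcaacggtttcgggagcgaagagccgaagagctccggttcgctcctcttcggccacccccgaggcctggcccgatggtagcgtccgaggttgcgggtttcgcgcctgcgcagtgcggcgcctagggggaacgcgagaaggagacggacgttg
G3bp1: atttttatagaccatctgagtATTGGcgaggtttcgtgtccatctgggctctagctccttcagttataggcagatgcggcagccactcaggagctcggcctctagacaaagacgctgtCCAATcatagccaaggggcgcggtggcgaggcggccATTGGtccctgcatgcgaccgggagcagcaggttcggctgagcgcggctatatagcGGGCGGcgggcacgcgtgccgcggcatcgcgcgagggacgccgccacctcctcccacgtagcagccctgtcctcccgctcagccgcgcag
Tia1: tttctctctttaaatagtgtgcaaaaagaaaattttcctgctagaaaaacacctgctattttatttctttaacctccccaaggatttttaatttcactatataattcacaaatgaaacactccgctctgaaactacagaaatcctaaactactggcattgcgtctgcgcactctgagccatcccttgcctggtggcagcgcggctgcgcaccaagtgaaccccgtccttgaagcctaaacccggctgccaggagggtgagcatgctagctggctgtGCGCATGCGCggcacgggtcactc

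The Ewsr1 window held 1 CRE core, found in 20.8% of 32851 windows, and no other match. G3bp1 had 3 CCAAT boxes and 1 GC box, which occur in 37.4% and 35.7% of windows. The Tia1 window held the NRF1 letters, found in 0.971% of windows, and 1 of the 3 windows of G3bp2 (chr5:92137676-92137975) held them too. That G3bp2 window lies upstream of the gene as annotated in Gencode M21, which starts at 92083719. The windows of G3bp2 near that start did not hold these letters. GC content was 66.3% for Ewsr1, 64.0% for G3bp1 and 48.0% for Tia1, against a median of 52.7% over all windows. A match describes letters and says nothing of binding. The 6 members that rose did not share a motif: GC boxes stood in windows of Tardbp, Taf15, Atxn2 and Caprin1 but not in that of Ewsr1, and no window of Matr3 was used here.

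Genes around these 9 were read from 6 lists, 108 of whose genes were tested. Of these 54 rose (50%), 17 fell (15.7%) and 37 did not pass, against 24.3% higher and 25.8% lower over all tested genes and 35.7% higher and 24.5% lower over those averaging 20 CPM or more. The list genes had a median log2 fold change of 0.15, against 0.06 over the genes averaging 20 CPM or more and 0.00 over all tested genes. List genes on chromosomes 7 and 18, whose medians were 0.26 and 0.41, rose in 7 of 9 cases and fell in 1, and the list genes elsewhere rose in 47 and fell in 16 of 99. The genes elsewhere include those on chromosomes 15 and X, which were lower as a whole, with medians of -0.28 and -0.22. The part of chromosome shifts in these counts was not tested.

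Of 38 further stress granule components, 23 rose (60.5%, against 24.3% of all tested genes and 35.7% of those averaging 20 CPM or more), 2 fell and 13 did not pass. Their median log2 fold change was 0.21. DESeq2 called 15 higher and 2 lower, against 11.5% of all genes higher and 10.6% lower. Prrc2a, which encodes a large proline-rich granule component, rose to 1069 and 1082 CPM in the clones, against 736 CPM in the control (log2 fold change 0.55; edgeR adjusted p = 1.55e-07). Atxn2l, the ataxin-2-like gene on chromosome 7, rose by a log2 fold change of 0.46 and Rbm3, a cold-inducible RNA-binding protein gene, by 0.45. Elavl1, which encodes the RNA-stabilising protein HuR, fell to 178 CPM in both clones, against 250 CPM in the control (log2 fold change -0.49; edgeR adjusted p = 1.62e-06). Usp10, a deubiquitinase gene whose protein binds G3BP1, was picked after its values were seen. Its levels were 189 CPM in both clones and 140 CPM in the control, 0.44 higher on the log2 scale, with an edgeR adjusted p of 1.16e-05.

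P-bodies, granules of messenger RNA decay that dock with stress granules, had 10 of 19 genes higher (52.6%, against 24.3% of all tested genes and 35.7% at 20 CPM or more), 3 lower (15.8%) and 6 not past the test. DESeq2 called 5 higher and 1 lower, against 11.5% and 10.6% of all genes with that tool. Limd1, which encodes a LIM-domain protein of miRNA silencing, rose to 94.4 and 97.2 CPM in the clones, against 52.8 CPM in the control (log2 fold change 0.86; edgeR adjusted p = 9.23e-08). Tnrc6c, an Argonaute-binding GW182 gene, rose to 294 and 280.3 CPM, against 179 CPM in the control. Lsm14a and Edc4, which encode an assembly factor and a decapping scaffold, had log2 fold changes of 0.61 and 0.37, and Lsm14a lies on chromosome 7.

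Among 12 hnRNP genes, relatives of TDP-43 that bind nascent RNA, 7 rose (58.3%, against 24.3% of all tested genes and 35.7% at 20 CPM or more), 3 fell and 2 did not pass. The share that fell was close to the 25.8% of all tested genes. DESeq2 called 6 higher and 1 lower, against 11.5% and 10.6% of all genes with that tool. Hnrnph2 fell to 51.3 and 53.8 CPM in the clones, against 96.4 CPM in the control (log2 fold change -0.88; edgeR adjusted p = 6.61e-08). It lies on chromosome X, where the median log2 fold change was -0.22. Hnrnpu, Hnrnpa3 and Hnrnpa2b1 rose by log2 fold changes of 0.35, 0.39 and 0.29. hnRNP genes have many processed pseudogenes, which may affect their counts, and this was not tested.

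Stress granules form when eIF2 is phosphorylated. Of 15 genes for eIF2 kinases, the eIF2 subunit gene Eif2s1, the eIF2B exchange factor and eIF2 phosphatases, 3 rose, 4 fell and 8 did not pass. The share that rose was close to the 24.3% of all tested genes and below the 35.7% at 20 CPM or more. Neither difference was tested. The 26.7% lower is near the 25.8% of all tested genes and the 24.5% at 20 CPM or more. DESeq2 called 2 higher and 1 lower, against 11.5% and 10.6% of all genes with that tool. Ppp1r15a, whose product GADD34 directs dephosphorylation of eIF2, rose to 90.9 and 81.2 CPM in the clones, against 56.4 CPM in the control (log2 fold change 0.61; edgeR adjusted p = 1.42e-05), and lies on chromosome 7. Ppp1ca, a catalytic subunit gene of protein phosphatase 1, had a log2 fold change of 0.33. Eif2ak1, the gene of the eIF2 kinase HRI, and Eif2b1 fell, with log2 fold changes of -0.34 and -0.39.

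Genes of granule clearance and of enzymes that modify G3BP proteins had 5 of 15 genes higher (33.3%), 4 lower (26.7%) and 6 not past the test. These shares are near the 35.7% higher and 24.5% lower of genes averaging 20 CPM or more. DESeq2 called 2 higher and 3 lower, against 11.5% and 10.6% of all genes with that tool. Hspb8 and Bag3 encode a small heat shock protein and a co-chaperone, which act together on misfolded granule proteins. Hspb8 fell to 166 and 148 CPM in the clones, against 334 CPM in the control (log2 fold change -1.09; edgeR adjusted p = 8.44e-10), and Bag3 fell to 205 and 199 CPM, against 256 CPM in the control (log2 fold change -0.34; edgeR adjusted p = 7.55e-05). Prmt1, an arginine methyltransferase gene on chromosome 7, had a log2 fold change of 0.88 and Csnk2b, a casein kinase 2 subunit gene, of 0.43.

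Importins and transportins carry TDP-43 and FET proteins into the nucleus. Of 9 nuclear transport genes, which are these receptors and Cse1l, the exporter that recycles importin alpha, 6 rose (66.7%, against 24.3% of all tested genes and 35.7% at 20 CPM or more), 1 fell and 2 did not pass. DESeq2 called 4 higher and 0 lower, against 11.5% and 10.6% of all genes with that tool. Tnpo1 encodes transportin 1, which recognises the nuclear localisation signal of FET proteins, and rose to 436 and 439 CPM in the clones, against 369 CPM in the control (log2 fold change 0.25; edgeR adjusted p = 0.000743). Its relative Tnpo2 rose by 0.39 and Cse1l by 0.40 on the log2 scale. Kpna2, an importin alpha gene, had a log2 fold change of 0.32.

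**Figure D5:**
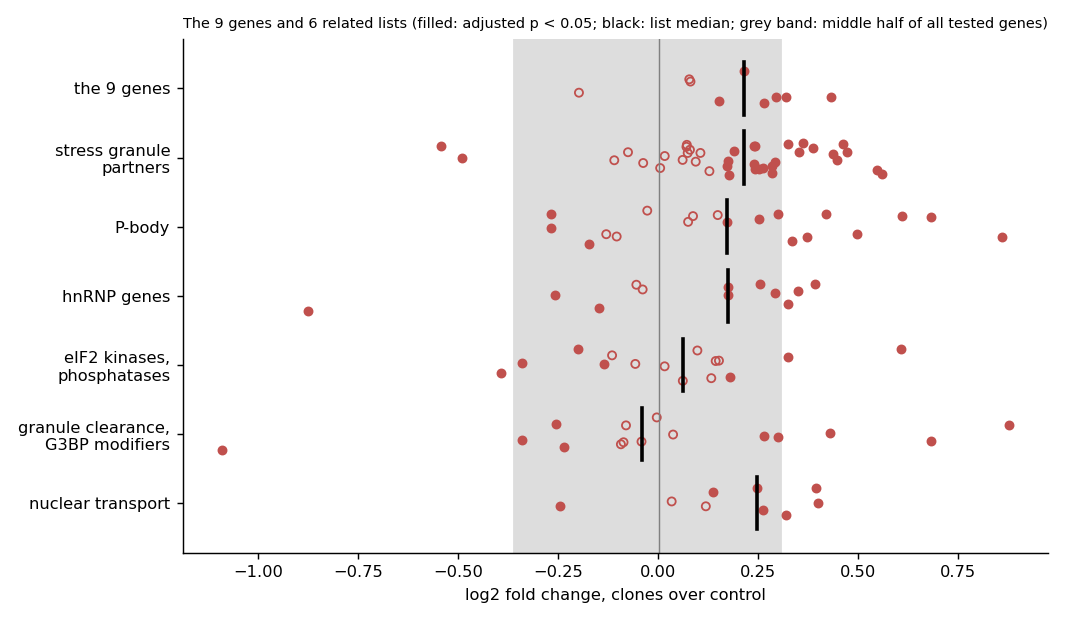
Log2 fold change of the clones over the control (horizontal axis) for the 9 genes and for the genes of 6 related lists, filled where the edgeR adjusted p was under 0.05. Black bars are list medians, and the grey band spans the middle of the distribution of all tested genes, from the lower to the upper quartile. The medians run from -0.04 for the clearance list to 0.25 for the nuclear transport genes.

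For Ewsr1, the member with the lowest edgeR p, the genes with the most similar pair of clone-to-control ratios were Utp3, Ralb and Rps18, at distances of 0.0059, 0.0066 and 0.0090 on the log2 scale. They were searched among 7735 genes over 3 libraries, which is too few for likeness to carry weight.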

How the data were processed

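Polyadenylated RNA was made into stranded libraries, per the labels' protocols. The raw counts are whole reads per gene that the authors made with STAR (version 2.5, Gencode M16, GRCm38/mm10), per the file headers. The sources used here do not give the strand setting. The deposited RPM values, used only as a check, equalled these counts scaled to the library total within 0.06 RPM for 99.7% of genes in each library. The authors' deposited DESeq2 table gives log2 fold changes, their standard errors (recorded as a score), p-values and adjusted p-values.

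Groups came from the labels. Genes were filtered with filterByExpr and tested in R 4.3.3 with edgeR 4.0.16 (quasi-likelihood F test, legacy option off, TMM, two-sided, Benjamini-Hochberg over 13705 genes at 0.05). Standard errors were derived from the log2 fold change and its F statistic. The 3 libraries leave 1 residual degree of freedom, so edgeR's spread borrows across genes. Alternatives used DESeq2 1.42.0, limma 3.58.1, other scaling factors, filters and lengths. Single-clone ratios used a prior count of 1. The code was checked on simulated counts. Depths of 11307034 to 11700755 counts set the precision, and intervals (95%) cover counting error only.

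Positions and lengths came from Gencode M21, which covered 13692 tested genes. The 9 genes and the lists were chosen with earlier results of these data known. Named were all 9 genes, the called genes of smallest edgeR p in each list (at most 4), and the 3 genes nearest to the member with the lowest p.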

Additional observations from a re-analysis of the deposited data

How the results depend on the processing

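RLE size factors, the legacy fit, limma-voom and a mean CPM of at least 1 left each of the 9 genes on its side of the threshold. DESeq2 called 2 of the 9 higher and 0 lower, against 11.5% of all genes higher and 10.6% lower. It called 15 stress granule partners higher and 2 lower, and 5 P-body genes higher and 1 lower. Of hnRNP genes it called 6 higher and 1 lower, and of eIF2 genes 2 higher and 1 lower. For clearance genes it gave 2 higher and 3 lower, and for nuclear transport genes 4 higher and 0 lower. Upper-quartile factors, which moved the median of all genes to -0.08, called 4 of the 9 higher and 1 lower. Of all 13705 tested genes, they called 2455 higher and 3911 lower. Without a low-count filter edgeR called 0 genes of the 9 and 0 of every list in either direction, against 6 higher and 1 lower of the 9, and 24 higher and 2 lower of the stress granule partners, at an unadjusted p under 0.05; the cause was not tested. Less the median of its chromosome, Matr3 reversed to -0.15. No test was possible with a clone left out, since no residual degree of freedom remained. No paired analysis was possible, since there was 1 control library and no label pairs it with a clone. Tia1, at 392 to 486 counts, is the member whose depth limits its value most. Shares per kb of the longest coding transcript were added after seeing the data.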
